A study of Mus musculus with 6 samples.

Results

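The collagen genes were followed across a differentiation course of mouse embryonic stem cells. They were taken by name from the platform annotation, as every gene whose single symbol reads Col, a number, a and a number. That gave 42 genes, read by 82 of the 45037 probe sets (the short groups of oligonucleotides that each report a transcript on an Affymetrix array). Each gene was represented by the probe set with the highest mean signal over the arrays. By textbook class, 11 genes were fibrillar collagens, 6 were basement membrane collagens (the type IV chains) and 25 were other collagens. Of these, 30 were measured, meaning that their mean signal reached a floor of 41.2 (log2 5.37), and they comprised 9 fibrillar, 4 basement membrane and 17 other genes. Over the whole series 13277 of 18193 genes were measured.

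RNA came from 6 cell samples, 1 array for each of 2 lines at days 0, 4 and 7. Both lines are triple knockout embryonic stem cells, lacking Dnmt1, Dnmt3a and Dnmt3b, and both express a DNMT1 ubiquitously. The deletion line (TKO_602) has a DNMT1 that lacks the N-terminal 602 amino acids, and the full-length line (TKO_FL) has the complete protein. Day 0 cells were stem cells grown with leukaemia inhibitory factor (LIF) in DMEM with 10% FBS. Day 4 cells were embryoid bodies of 1 day followed by 3 days of adherent culture without LIF, and day 7 cells had a further 3 days in medium with 10% KSR and Activin A (10 ng/ml). Because each DNMT1 form was read in a single line, the protein form and the line cannot be told apart, and Activin A, the change of medium and time go together from day 4 to day 7. The source label of the deletion line's day 0 array describes differentiated cells, while its title gives day 0, and the title was followed. All 10 genes of a stem cell marker list lay above the floor on every array, and Pou5f1 had log2 signals in the deletion line of 13.66, 13.53 and 13.56 (days 0, 4 and 7), against 14.02, 13.89 and 13.21 in the full-length line. By the limma test described below, 1 of the 10, Esrrb, was lower at day 4 over day 0 (log2 difference -1.68, adjusted p = 0.0349), against 0.7% of all measured genes. Another 1, Tdgf1, was lower at day 7 over day 0 (-1.14, adjusted p = 0.0475), against 0.392%.

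Collagens are secreted proteins whose chains wind around each other in a triple helix, which needs glycine at regular intervals along the chain. Fibrillar collagens such as types I, III and V assemble into the banded fibrils of connective tissue and are made mainly by fibroblasts and other mesenchymal cells. Type IV collagen forms the network of basement membranes, the sheets under epithelia, and the early embryo lays it down long before it makes fibrils. Type VI forms beaded filaments, type VIII a short-chain network, type XII decorates fibrils, and type XVIII is a proteoglycan of basement membranes.

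Levels are log2 MAS5 signals, with values below the floor set to it, and differences are log2 differences. A difference from a level at the floor is a bound and is written as at least that size. Of the 30 measured collagens, between 21 and 27 lay above the floor on any 1 array. The measured set holds genes that passed because 1 array was bright, so its counts describe and do not test. Across genes, the 6 arrays correlated pairwise between 0.929 and 0.974. No line and day was repeated, and nothing in the labels speaks of repeated cultures. The adjusted p-values are from limma, which set the mean change over both lines, or the mean line difference over the days, against a spread. That spread joined how the lines' courses differed for the gene with the spread of genes of similar level. The latter weighed more, with 5.63 prior against 2 residual degrees of freedom. Levels at the floor in both lines hide any difference between them. The p-values carry the Benjamini-Hochberg adjustment over all measured genes and a threshold of 0.05. The number of arrays limits the precision of every value.

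At day 4, compared with day 0, several fibril-forming, fibril-associated and beaded filament collagens were lower in both lines, and Col4a1 and Col4a2, the major type IV chains, were higher. Col1a2, Col6a1 and Col8a1 fell, at 10.7-fold, at least 6.14-fold and at least 9.99-fold. They were the 3 collagens called lower out of 30 measured, where 0.7% of all measured genes were called lower. The count called higher was 0 by limma, where 0.881% of all measured genes were called higher, and at an unadjusted p under 0.05 there were 4 collagens higher, against 10.2% of all measured genes, and 12 lower, against 6.09%. By size alone, 8 of the 30 were at least 2-fold lower in both lines with the brighter array at 2 times the floor or more, against 1.72% of all measured genes. Another 2, Col4a1 and Col27a1, were at least 2-fold higher in both lines, against 3.05%. Within the deletion line alone, 3 collagens were at least 2-fold higher at day 4, against 6.24%, and 12 lower, against 4.07%. Within the full-length line alone, 6 were higher, against 8.14%, and 9 lower, against 5.02%. The median change over the 9 fibrillar genes was -1.20, over the 4 type IV genes 0.68, over the 17 other collagens -0.72 and over all measured genes 0.04. Each of the 3 calls was lost on leaving out any 1 array, which leaves 1 residual degree of freedom. Without the deletion line's day 0 array, whose labels disagree, the differences were -2.40 for Col1a2, at least -2.01 for Col6a1 and at least -2.54 for Col8a1. In these bulk samples, fewer cells of a type and less RNA per cell cannot be told apart.

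Col1a2, which encodes a chain of type I collagen, had levels of 11.73, 7.19 and 9.40 in the deletion line at days 0, 4 and 7, against 10.39, 8.10 and 9.87 in the full-length line. Both lines were lowest at day 4, and both day 4 levels lay below all 4 others. The day 4 change was -3.42 (SE 0.48, adjusted p = 0.0252), made of -4.54 in the deletion line and -2.29 in the full-length line. A dimmer Col1a2 probe set gave -2.76, and the dimmest of its 3 probe sets was at the floor on all arrays. In the full-length line the dimmer probe set read 8.28, 7.28 and 8.54, so it was highest at day 7 there and not at day 0.

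Col3a1 encodes type III collagen, which forms fibrils together with type I. Its levels were 11.06, the floor and 7.96 in the deletion line at days 0, 4 and 7, and 8.65, 6.52 and 5.52 in the full-length line. Day 0 was the highest day in each line, and the deletion line was the higher at days 0 and 7 and the lower at day 4. The day 4 difference of at least -3.91 (SE 0.81) was not called (adjusted p = 0.0657), and the second probe set, which was above the floor on the deletion line's day 0 array only, gave at least -1.20. Col1a1, the other chain of type I collagen, had levels of 9.06, 5.71 and 5.70 in the deletion line and 6.77, 6.18 and 5.76 in the full-length line. Its brightest value was the deletion line's day 0 array, and the day 4 difference of -1.97 (SE 0.64) was not called (adjusted p = 0.184). Its second probe set, at the floor in both lines at day 4, gave at least -2.42, with the full-length day 0 array at 7.33.

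The promoter sequences of 3 genes that were lower at day 4 in both lines are shown with every CpG in capitals, because CpG is the dinucleotide that DNA methyltransferases modify. They are the 250 bases before the annotated start, from RefSeq on GRCm38.p6, written 5′ to 3′ on the gene's strand. Col1a2 lies at chr6:4505368-4505617 on the plus strand, Col3a1 at chr1:45311288-45311537 on the plus strand and Col6a1 at chr10:76726045-76726294 on the minus strand.
Col1a2: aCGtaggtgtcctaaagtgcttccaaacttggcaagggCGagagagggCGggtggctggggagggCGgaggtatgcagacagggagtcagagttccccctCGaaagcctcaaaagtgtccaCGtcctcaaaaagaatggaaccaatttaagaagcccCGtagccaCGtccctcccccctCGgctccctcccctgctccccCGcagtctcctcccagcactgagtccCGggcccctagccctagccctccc
Col3a1: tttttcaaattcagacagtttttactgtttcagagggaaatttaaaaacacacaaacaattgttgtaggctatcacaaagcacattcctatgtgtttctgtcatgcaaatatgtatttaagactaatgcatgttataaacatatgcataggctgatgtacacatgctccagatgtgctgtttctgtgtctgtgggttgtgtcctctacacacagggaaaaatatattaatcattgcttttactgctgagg
Col6a1: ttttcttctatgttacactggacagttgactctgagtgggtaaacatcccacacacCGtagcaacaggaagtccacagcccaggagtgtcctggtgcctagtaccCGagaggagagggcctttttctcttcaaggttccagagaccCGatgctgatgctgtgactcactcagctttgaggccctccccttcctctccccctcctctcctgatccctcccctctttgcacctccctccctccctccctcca
The 3 stretches hold 11, 0 and 3 CpG. Genes that were lower at day 4 in both lines thus differ in CpG content just before their starts.

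Type V collagen regulates the width of type I fibrils. Col5a2 had levels of 10.76, 7.69 and 9.02 in the deletion line at days 0, 4 and 7, against 9.10, 9.10 and 9.03 in the full-length line. The deletion line dipped at day 4 and the full-length line stayed within 0.07, and the mean day 4 difference of -1.54 (SE 0.60) was not called (adjusted p = 0.264). A second Col5a2 probe set gave levels of 8.16, 5.66 and 7.03 in the deletion line and of the floor, 7.16 and 6.69 in the full-length line, so the probe sets disagree on the full-length day 0 level. Col5a1 had levels of 9.06, 7.67 and 7.97 in the deletion line and 8.66, 8.46 and 8.27 in the full-length line, with no call in any comparison.

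Some fibrillar collagens had other courses. Col27a1, a fibrillar collagen of cartilage, was at the floor, 7.38 and the floor in the deletion line at days 0, 4 and 7, against 6.22, 7.36 and the floor in the full-length line. It peaked at day 4 in both lines, with a difference of at least 1.58 (SE 0.38, adjusted p = 0.0965) that was not called, and its second probe set gave 1.01. Col2a1, the main collagen of cartilage, was at the floor on all 3 arrays of the deletion line, against 5.46, 7.17 and 7.23 in the full-length line. Of the cartilage marker list 4 of 9 genes with a probe set were measured and 0 were called in any comparison.

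**Figure D1:**
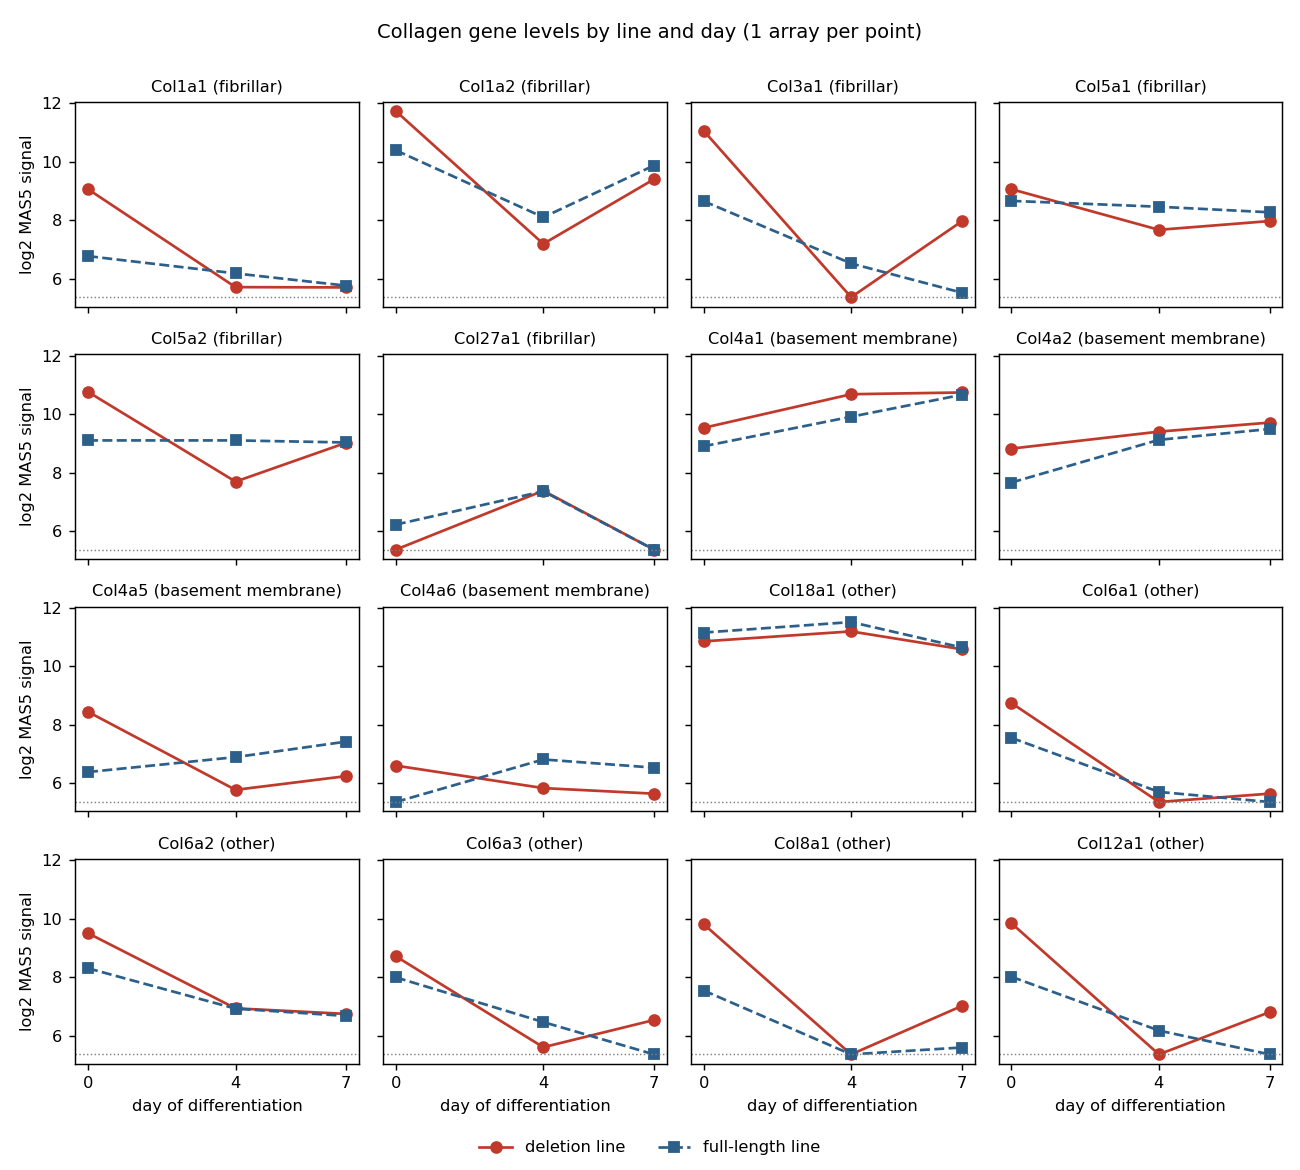
Log2 MAS5 signal (vertical axis) of 16 collagen genes by day of differentiation (horizontal axis), with circles for the deletion line and squares for the full-length line, 1 array per point, and the floor of 5.37 as a dotted line. By the brightest probe set of each gene, which is the one drawn, Col1a2, Col3a1, Col6a1, Col8a1 and Col12a1 are highest at day 0 in each line. Col4a1 and Col4a2 are lowest there.

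Col4a1 encodes a chain of the ubiquitous form of type IV collagen and had levels of 9.53, 10.68 and 10.74 in the deletion line at days 0, 4 and 7, against 8.90, 9.91 and 10.66 in the full-length line. The day 0 arrays were the lowest in each line. Col4a1 rose at day 7 over day 0, by 1.48 (SE 0.23, adjusted p = 0.0408), or 2.80-fold, with 1.21 in the deletion line and 1.76 in the full-length line. The day 4 difference over day 0, 1.08 (SE 0.23), missed the threshold (adjusted p = 0.0722). A second probe set gave 1.30 at day 7 and 1.02 at day 4. The day 7 call was kept in 2 of 14 alternatives, a floor at the 20th percentile and equal medians. Without any 1 of the 6 arrays it was lost, and the value lay between 1.18 and 1.80.

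Col4a2 encodes the partner chain, which joins Col4a1 chains in the same triple helix. It had levels of 8.82, 9.40 and 9.71 in the deletion line and 7.66, 9.12 and 9.49 in the full-length line, so it was also lowest at day 0 in both. The day 7 difference over day 0 was 1.36 (SE 0.30, adjusted p = 0.0866) and was not called. These genes lie head to head on chromosome 8, Col4a1 on the minus strand and Col4a2 on the plus strand, and their RefSeq starts lie so close that the promoter windows, of 250 bases before and 50 after each start, share 78 bases. The 22 bases from start to start, at chr8:11312805-11312826 on the plus strand of GRCm38.p6, are shown because both genes share them, again with CpG in capitals. By these annotated starts both genes read into the stretch, from opposite strands. It therefore lies just after each start and not before it.
Col4a1 and Col4a2, start to start: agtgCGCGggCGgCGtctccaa
It holds 4 CpG.

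The other measured type IV chains, Col4a5 and Col4a6, form the network of a smaller set of basement membranes and also lie head to head, on the X chromosome. Col4a5 had levels of 8.45, 5.78 and 6.25 in the deletion line at days 0, 4 and 7, against 6.39, 6.90 and 7.43 in the full-length line. Col4a6 had levels of 6.61, 5.84 and 5.65 in the deletion line, against the floor, 6.82 and 6.54 in the full-length line. For both genes day 0 was the highest day in the deletion line and the lowest in the full-length line. The median over the 4 type IV genes therefore mixes 2 patterns, and it turned to -0.091 at day 4 without the full-length day 0 array. A second Col4a5 probe set gave 6.57, 6.01 and the floor in the deletion line and 5.45, 6.21 and 5.93 in the full-length line, which are the same directions from day 0 in each line. Col4a3 and Col4a4, chains of the kidney glomerulus, were not measured.

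Col18a1, which encodes a heparan sulphate collagen of basement membranes and the precursor of endostatin, kept a narrow range. Its levels were 10.86, 11.20 and 10.59 in the deletion line, against 11.16, 11.52 and 10.65 in the full-length line. The day 7 difference over day 4, -0.74 (SE 0.17), was not called (adjusted p = 0.196), and its second probe set gave -0.42. Col15a1, its nearest relative, was not measured. With Col18a1 added to the 4 type IV genes, the median at day 7 over day 0 was 0.11, against 0.73 for type IV alone.

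Type VI collagen is assembled from 3 main chains into beaded filaments around many mesenchymal cells. Col6a1 fell at day 4, with a difference of at least -2.62 (SE 0.44, adjusted p = 0.0396), and at day 7 over day 0, with at least -2.65 (SE 0.44, adjusted p = 0.0468). Its levels were 8.75, the floor and 5.65 in the deletion line at days 0, 4 and 7, against 7.56, 5.71 and the floor in the full-length line. Every level after day 0 lay below both day 0 levels. Col6a2 had levels of 9.51, 6.94 and 6.75 in the deletion line and 8.31, 6.93 and 6.68 in the full-length line. Its differences, -1.98 at day 4 and -2.19 at day 7 over day 0, missed the threshold (adjusted p = 0.0588 and 0.0556), and a second probe set gave -0.66 and -1.34. Col6a3 had levels of 8.72, 5.61 and 6.54 in the deletion line, against 8.0, 6.47 and the floor in the full-length line. It was not called (adjusted p = 0.0758 at day 4), and all 3 chains were thus lower after day 0 in both lines. Col6a4 and Col6a5 were not measured.

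Among the remaining collagens, Col8a1, a short-chain collagen of vessel walls and of the cornea, fell at day 4, with a difference of at least -3.32 (SE 0.53, adjusted p = 0.0349). Its levels were 9.82, the floor and 7.02 in the deletion line and 7.55, the floor and 5.60 in the full-length line. The other 2 probe sets of Col8a1 gave -1.65 and at least -0.68. Col12a1, which coats type I fibrils, had levels of 9.85, the floor and 6.81 in the deletion line, against 8.02, 6.18 and the floor in the full-length line. The difference of at least -3.16 (SE 0.61) at day 4 was not called (adjusted p = 0.0552), and a second probe set gave -0.28, with levels between 5.88 and 6.86, while its remaining 2 probe sets were at the floor throughout. In the full-length line the second Col12a1 probe set read 5.91, 5.88 and 6.10, highest at day 7. Col13a1, a transmembrane collagen, had levels of 6.57, the floor and the floor in the deletion line and 7.04, 5.41 and 5.40 in the full-length line, without a call (adjusted p = 0.102 at day 4).

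**Figure D2:**
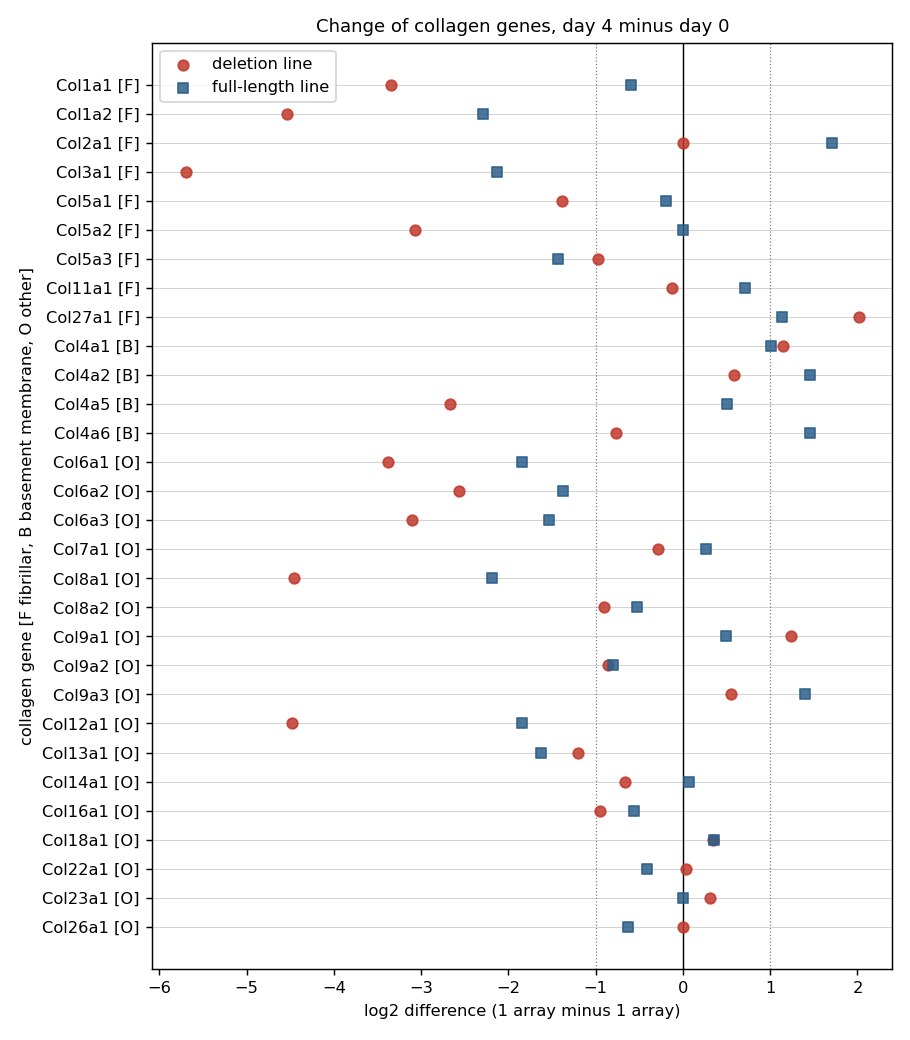
Log2 difference of day 4 minus day 0 (horizontal axis) for the 30 measured collagens (vertical axis), with circles for the deletion line and squares for the full-length line, each 1 array minus 1 array, and dotted lines at 2-fold. Col1a2, Col3a1, Col6a1 to Col6a3, Col8a1, Col12a1 and Col13a1 lie beyond 2-fold lower in both lines, and Col4a1 and Col27a1 beyond 2-fold higher.

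From day 4 to day 7, under Activin A, 0 collagens were called by limma, where 2 of all measured genes (0.0151%) were, and at an unadjusted p under 0.05 there was 1 collagen higher, against 6.29%, and 3 lower, against 5.63%. Col1a2 was at least 2-fold higher in both lines, by 2.21 in the deletion line and 1.77 in the full-length line (mean 1.99, SE 0.48, adjusted p = 0.206). This was 1 of 30 collagens, against 1.4% of all measured genes. Col27a1 was the 1 collagen at least 2-fold lower in both lines, against 0.851%, with -2.00 (SE 0.38, adjusted p = 0.137) as a bound. In all, 5 collagens, the fibrillar Col1a2, Col3a1 and Col5a2, the short-chain Col8a1 and the fibril-associated Col12a1, were at least 2-fold higher at day 7 than day 4 in the deletion line, or 5 of 30 against 4.76% of all measured genes. All 5 had been at least 2-fold lower at day 4 than day 0 there, which held in both steps for 1.25% of all measured genes. A single collagen, Col27a1, was at least 2-fold lower at day 7 than day 4 in the deletion line, against 5.97%, and 4, Col3a1, Col6a3, Col9a3 and Col27a1, in the full-length line, against 3.14%. In the full-length line 2 collagens, Col1a2 and Col26a1, were at least 2-fold higher at day 7 than day 4, against 5.2%, and Col1a2 alone had also been lower at day 4, as 1.57% of all measured genes were. The steps share the day 4 array of each line, so a chance value there moves them in opposite directions.

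Over the whole course, day 7 against day 0, Col4a1 rose and Col6a1 fell, as 2 called collagens of 30, where 1.03% of all measured genes were called (0.64% higher and 0.392% lower). At an unadjusted p under 0.05, 2 were higher, against 10.7%, and 9 lower, against 6.58%. In the deletion line alone 2 collagens were at least 2-fold higher, against 6.25%, and 13 lower, against 4.72%. In the full-length line alone 5 were higher, against 9.95%, and 8 lower, against 4.26%. At least 2-fold lower in both lines were 8 collagens, against 1.32% of all measured genes. They were Col1a1, Col3a1, Col6a1, Col6a2, Col6a3, Col8a1, Col12a1 and Col13a1. A second Col12a1 probe set did not repeat this, with a mean difference of 0.06. Second probe sets gave at least -2.23 for Col1a1, at least -1.20 for Col3a1 and -1.34 for Col6a2. The other Col8a1 probe sets gave at least -1.74 and at least -0.68. Col4a1 alone was at least 2-fold higher in both, against 2.36%. Col1a2, lower at day 4, lay at -2.33 in the deletion line and -0.52 in the full-length line at day 7 over day 0 (adjusted p = 0.194). Its dimmer probe set read 8.28 at day 0 and 8.54 at day 7 in the full-length line. Both calls, of Col4a1 and Col6a1, were lost on leaving out any 1 array. Without the deletion line's day 0 array, the differences were 1.59 for Col4a1 and at least -2.04 for Col6a1.

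The lines were compared at each day to ask whether the DNMT1 form went with collagen levels. Averaged over the days, 0 collagens and 0 of all measured genes (0%) were called by limma. At an unadjusted p under 0.05 stood 3 collagens, Col4a1 at 0.49 and Col8a1 at 1.23 (with both lines at the floor at day 4), higher in the deletion line, and Col2a1 with at least -1.25, lower in it (adjusted p between 0.331 and 0.375), where 5.05% of all measured genes were higher and 7.19% lower. At day 0, 11 of 30 collagens were at least 2-fold higher in the deletion line, against 3.14% of all measured genes, and 0 were lower, against 2.82%. The 11 were Col1a1, Col1a2, Col3a1, Col5a2, Col4a2, Col4a5, Col4a6, Col6a1, Col6a2, Col8a1 and Col12a1. These set 1 array against 1 array, without a test, and all 11 rest on the day 0 array whose labels disagree. With probe sets averaged, 8 collagens were at least 2-fold higher in the deletion line at day 0.

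By the brightest probe set, Col3a1 differed by 2.41 between the lines at day 0, Col1a1 by 2.29, Col8a1 by 2.27 and Col4a5 by 2.06, each at least 4-fold higher in the deletion line. A second Col1a1 probe set gave 8.25 in the deletion line and 7.33 in the full-length line, under 2-fold apart. That of Col4a5 gave 6.57 and 5.45, and that of Col3a1 7.77 and the floor. The other Col8a1 probe sets gave 7.85 and 6.72, and 6.72 and the floor. At day 4 the direction was different. None of the 30 was at least 2-fold higher in the deletion line, against 2.43% of all measured genes, and 4 were lower, Col2a1, Col3a1, Col4a5 and Col5a2, against 3.52%. At day 7 the deletion line had 5 at least 2-fold higher, Col3a1, Col6a3, Col8a1, Col9a1 and Col12a1, against 3.95%, and 3 lower, Col2a1, Col4a5 and Col26a1, against 8.92%. Col3a1 had a difference of 2.44 at day 7, and the collagens beyond 2-fold in 1 direction at every day numbered 0, against 0.0753% of all measured genes higher and 0.0979% lower.

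**Figure D3:**
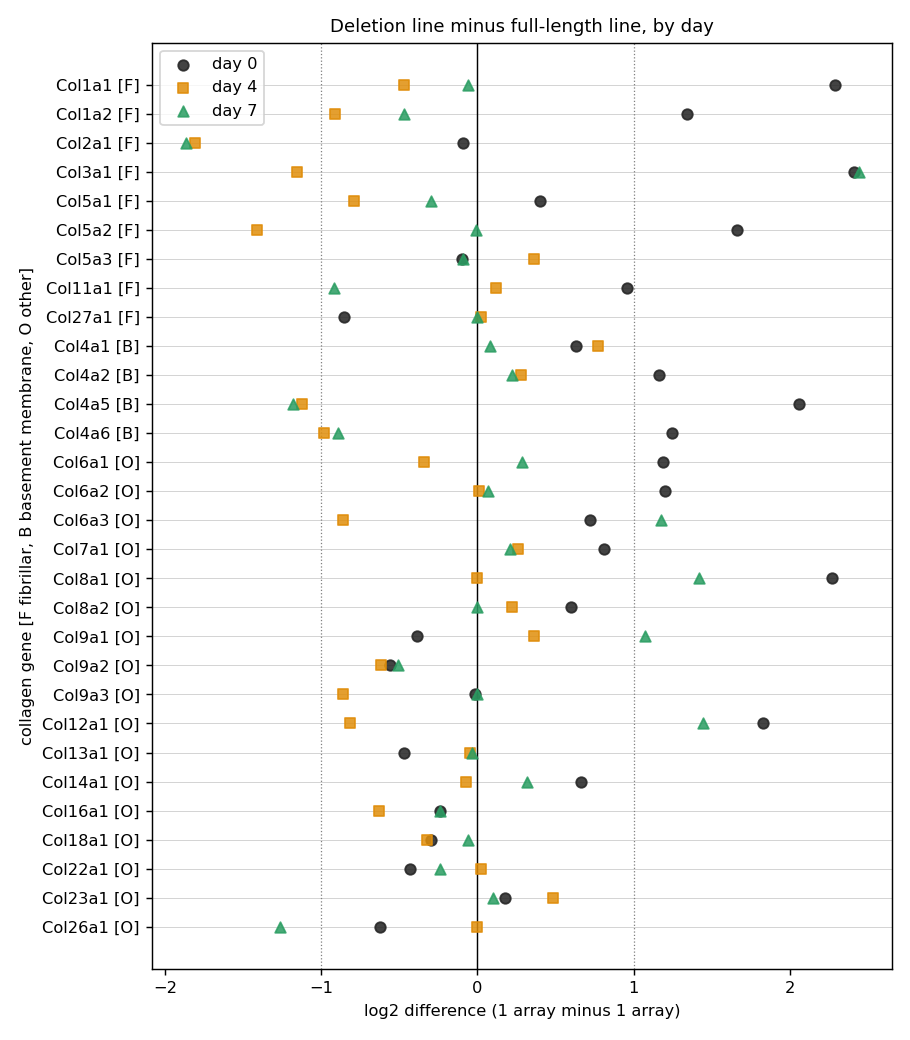
Log2 difference of the deletion line minus the full-length line (horizontal axis) for the 30 measured collagens (vertical axis), with a symbol for each day, 1 array minus 1 array, and dotted lines at 2-fold. The day 0 symbols of 11 genes lie beyond 2-fold higher in the deletion line, and no day 4 symbol does.

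Most markers of fibroblasts other than collagens were also lower after day 0. The labels do not say whether the stem cells were grown on feeder cells. Of 17 markers with a probe set 16 were measured, and 9 fell and 0 rose at day 4, with a median change of -2.29, where 0.7% of all measured genes fell and 0.881% rose. Bgn, which encodes the proteoglycan biglycan, fell by 3.56 (SE 0.23, adjusted p = 0.0016). The mesenchymal homeobox gene Prrx1 had a level of 8.50 at day 0 in the deletion line and of 7.61 in the full-length line, and stood at the floor in both lines at day 4. Mgp, Prrx1 and Twist2 were at the floor at day 4 in both lines, as were Dcn, Lum and Postn in the deletion line and Tnc in the full-length line. Twist1 was higher at day 4 than day 0 in both lines, at 7.83 and 7.96 in the deletion line and 7.72 and 8.42 in the full-length line. Also higher at day 4 were Pdgfra in the deletion line and Fstl1 and, just above the floor, Lum in the full-length line. The list's summed signal was 15594, 3082 and 3357 in the deletion line at days 0, 4 and 7, against 8837, 3478 and 3851 in the full-length line. It was thus highest on the deletion line's day 0 array, as was the summed signal of the fibrillar collagens, at 8651, 1012 and 1981 in the deletion line, against 3129, 1780 and 2258 in the full-length line. After day 0 Fstl1 weighs most in the marker sums, at 10.40 and 9.98 in the deletion line and 10.98 and 11.23 in the full-length line. At day 7, 5 markers were at least 2-fold higher in the deletion line, against 3.95% of all measured genes, and 2 lower, against 8.92%. The median difference was 0.57.

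At day 7 Postn, a matrix gene of fibroblasts, had a level of 7.65 in the deletion line and 5.40 in the full-length line, where Col3a1 had 7.96 and 5.52. Col1a2, at 9.40 and 9.87, did not show that gap. Of macrophage markers 10 were measured of 12 that had a probe set, and 2, Lyz2 and Ctss, fell at day 4, where 0.7% of all measured genes did. Their summed signal was 5843, 903 and 1401 in the deletion line and 1987, 823 and 1756 in the full-length line, highest on the deletion line's day 0 array. Csf1r, a macrophage growth factor receptor, had levels of 8.24, 6.31 and 8.52 in the deletion line and 6.86, 7.10 and 8.88 in the full-length line, and Cd68 was also highest at day 7 in both lines. The part of these other cell markers in the collagen results was not tested. The summed signal of the type IV genes ran the other way, at 1639, 2428 and 2674 in the deletion line and 805, 1751 and 2603 in the full-length line. Col4a1 and Col4a2 weigh most in it, with mean signals of 1191 and 574, against 143 for Col4a5 and 74 for Col4a6. In the deletion line the median type IV change at day 4 was -0.095, with 2 genes higher and 2 lower. In the full-length line it was 1.23, with 4 higher. Most visceral endoderm markers, of a tissue that rests on a basement membrane, were also higher after day 0. Of 10 measured, Ttr, Afp and Dab2 rose at day 4 (3 of 10, against 0.881% of all measured genes) and 0 were called lower, and the summed signals were 7549, 16594 and 13745 in the deletion line and 8306, 11817 and 13347 in the full-length line. Apoe weighs most in these sums, with levels of 12.66, 13.38 and 12.95 in the deletion line and 12.81, 13.10 and 13.44 in the full-length line. In the full-length line Hnf4a went from 6.99 to the floor and 6.36, and Cubn from 7.45 to 7.98 and 6.81. Of 14 parietal endoderm markers, all measured, 0 were called, and their summed signals were 11222, 12404 and 15444 in the deletion line and 9604, 13029 and 14177 in the full-length line. Sparc and Lamb1 weigh most in these sums, and the markers went both ways. At day 4 over day 0, 4 were at least 2-fold higher and 2 lower in the deletion line, against 6.24% and 4.07% of all measured genes. In the full-length line 2 were higher and 1 lower, against 8.14% and 5.02%.

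**Figure D4:**
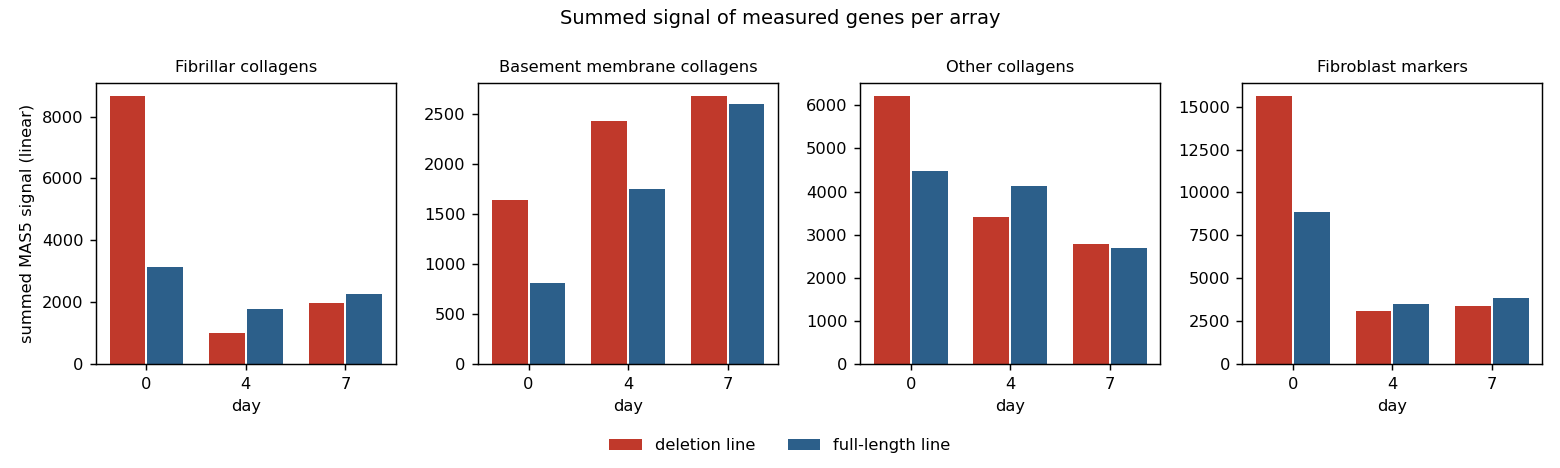
Summed linear MAS5 signal (vertical axis, from 0, with a scale of its own in each panel) of measured fibrillar, basement membrane and other collagens and of fibroblast markers, by day, with the deletion line's bar left of the full-length line's bar, 1 array each. Fibrillar collagens and fibroblast markers are highest on the deletion line's day 0 array, and basement membrane collagens are lowest at day 0 in each line.

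Genes that make, process, bind and degrade collagen were read from lists. Those that modify and fold the chains in the endoplasmic reticulum numbered 20 measured. Of these, 0 were called in any comparison, and their median change at day 4 was 0.04. Serpinh1, the collagen chaperone HSP47, had levels of 10.73, 10.80 and 10.95 in the deletion line at days 0, 4 and 7, against 10.29, 11.53 and 11.48 in the full-length line. Its differences were not called, and neither were those of P3h2, a prolyl 3-hydroxylase (at least 1.56 at day 4, adjusted p = 0.0767). Of 10 measured genes of procollagen processing and cross-linking 1 fell at day 4, against 0.7% of all measured genes, and 0 rose. Pcolce, which enhances removal of the C-terminal propeptide of fibrillar procollagens, fell by 1.96 (SE 0.22, adjusted p = 0.0134), with levels of 12.44, 10.33 and 11.33 in the deletion line and 11.65, 9.84 and 10.05 in the full-length line.

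Lox, a lysyl oxidase that starts the cross-links of fibrils, had levels of 10.83, 6.23 and 9.48 in the deletion line, against 9.20, 6.39 and 5.45 in the full-length line. Like Col3a1 it was low at day 4 in both lines and higher in the deletion line at day 7, and its day 4 difference of -3.71 was not called (adjusted p = 0.0760). Pxdn, the peroxidase that cross-links type IV collagen, had levels of 8.38, 9.86 and 8.31 in the deletion line and 8.89, 10.46 and 10.25 in the full-length line, with a day 4 difference of 1.52 (adjusted p = 0.0924). Of 12 measured genes of the degradation list 2 fell at day 4, Timp1 by 1.81 and Timp2 by 1.41 (adjusted p = 0.0152 and 0.0468), against 0.7% of all measured genes. Both encode inhibitors of metalloproteinases, not enzymes of breakdown. Of 6 measured collagen receptors 0 were called. Ddr1, an epithelial receptor tyrosine kinase for collagen, had levels of 11.09, 12.03 and 10.17 in the deletion line and 9.41, 12.15 and 11.18 in the full-length line (adjusted p = 0.140 at day 4). Among 14 measured partners of basement membranes, which include laminins, nidogens and perlecan, 0 were called and the median day 4 change was -0.10. Nid1 stood nearest the threshold with -1.30 (adjusted p = 0.0639), opposite in sign to Col4a1, and Lamb1 kept between 11.45 and 12.16 on all 6 arrays.

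The other measured collagens had no call, and were Col5a3, Col7a1, Col8a2, Col9a1, Col9a2, Col9a3, Col11a1, Col14a1, Col16a1, Col22a1, Col23a1 and Col26a1. Col7a1, of the anchoring fibrils of skin, stayed between 6.53 and 7.37 on all arrays, and Col16a1 between 6.56 and 7.75. Col9a1 and Col9a3, which encode chains of type IX collagen of cartilage, were at least 2-fold higher at day 4, Col9a1 in the deletion line by at least 1.23 and Col9a3 in the full-length line by 1.40. A second Col9a1 probe set was at the floor at days 0 and 4 in the deletion line. The other Col9a3 probe sets were at the floor throughout in the full-length line. Col9a2, also of type IX, had a mean day 4 difference of at least -0.83. The 12 genes that were not measured were Col4a3, Col4a4, Col6a4, Col6a5, Col10a1, Col11a2, Col15a1, Col17a1, Col19a1, Col20a1, Col24a1 and Col25a1. On either side of the filter, Col23a1 was measured with a mean signal of 42.8, and Col20a1 was not with 37.6.

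Promoter windows of 300 bases in RefSeq were matched by gene identifier for 33 of the 42 collagens, 22 of them measured, in 36 windows. CG was counted, which reads the same on both strands. The median was 11.5 CpG per window in collagens and 7 over all 32851 windows. Col4a1 had 37 and Col4a2 33, counts reached by 5.58% and 8.56% of all windows, and Col5a1 had 34. Col1a2 had 13, Col8a1 12, Col6a1 and Col6a3 3 each and Col3a1 0, and 5.43% of all windows held none. Col4a5 had 11 and Col4a6 3. CCAAT, searched on both strands as CCAAT or ATTGG, was found in 13 of 36 collagen windows and in 37.4% of all windows. It was in the windows of Col1a2, Col4a1, Col4a2 and Col4a5 and not in those of Col3a1, Col6a1 and Col8a1. TATAAA, searched on both strands as TATAAA or TTTATA, was in 5 collagen windows, Col3a1 among them, and in 13.6% of all windows. A match describes the letters of the window only.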

How the data were processed

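RNA of 6 samples was read on Affymetrix arrays, and samples were grouped by title. The deposited values are log2 MAS5 signals made by the authors, per the submitters' processing notes. The sources used here give no MAS5 version or scaling target, and the log2 scale was read from the values, which ran from 0 to 15.68, with trimmed means of 2 to their power (2% off each end) between 496.7 and 496.9 on all arrays. Values under the floor, the median over arrays of the 40th percentile, were set to it. Gene symbols came from the platform annotation of 2016, and 42 of 42 collagen symbols were the same in RefSeq. Differences were fitted with limma 3.58.1 in R 4.3.3, with line and day as additive factors, a variance trend, 2 residual and 5.63 prior degrees of freedom, and two-sided tests. The fit was run on simulated data, with independent normal noise around each gene's mean and added changes. Those data held no floor and no differences between the lines' courses, so they cannot show how the fit handles either. Single arrays were compared by size, at 2-fold with the brighter array at 2 times the floor or more.

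Values on all 6 arrays are given for a fixed set of type I, II, III, IV, V, VI, XV and XVIII genes and for collagens called, beyond 2-fold 1 way in both lines or at all days, or at least 4-fold apart between lines. From each list, called genes and up to 4 others with large changes could be named. Col9a1, Col9a2, Col9a3, Col7a1 and Col16a1, Serpinh1, Pou5f1, Lamb1, Csf1r and Cd68 and the day 7 level of Postn were named after their values were seen. So were Twist1, Fstl1, Pdgfra, Hnf4a, Apoe and Sparc. The collagens, lists, classes and rules were chosen with earlier results of these data known. Alternatives covered the floor, averaging of probe sets, scaling, the filter on dim genes, the variance trend, the line term and each array left out. No batch is named in the labels.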

Additional observations from a re-analysis of the deposited data

Results flagged for a closer look

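Among the measured collagens, 8 changes ran in opposite directions in the lines by at least 0.5 on the log2 scale in each. These differences between the lines' courses rest on 1 array each and were not tested. Col4a5 changed by -2.67 in the deletion line and 0.51 in the full-length line at day 4 over day 0, and by -2.20 and 1.04 at day 7 over day 0. Col4a6 changed by -0.77 in the deletion line and at least 1.45 in the full-length line at day 4 over day 0, and by -0.96 and at least 1.17 at day 7 over day 0. Col3a1 changed by at least 2.59 in the deletion line and -1.0 in the full-length line from day 4 to day 7. Over the same step Col6a3 changed by 0.93 in the deletion line and at least -1.10 in the full-length line, and Col12a1 by at least 1.44 and at least -0.81. Col11a1 changed by -0.95 in the deletion line and 0.93 in the full-length line at day 7 over day 0. Second probe sets did not all repeat these directions. For Col11a1, both lines rose, reaching 6.18 (deletion, day 0 at 5.98) and 6.51 (full-length, day 0 at floor). For Col12a1, both rose after day 4, 6.32 becoming 6.79 (deletion) and 5.88 becoming 6.10 (full-length). The second Col3a1 probe set was at the floor at days 4 and 7, and that of Col4a6 throughout. The second Col4a5 probe set kept opposite directions.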

How the results depend on the processing

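Of 14 alternatives for each of the 5 called differences, the call was kept in 4 for Col1a2, 3 for Col8a1 and 2 for Col6a1 at day 4 over day 0, and in 2 each for Col4a1 and Col6a1 at day 7 over day 0, so 57 refits lost a call. Another 8 refits gained one, and 0 changed direction. The counts of called collagens depended on the settings. Against 3 at day 4 over day 0, there were 1 with the floor at the 60th percentile, 7 with arrays scaled to equal medians (Col3a1, Col6a2, Col6a3 and Col12a1 being added), and 0 with probe sets averaged, no filter on dim genes, no variance trend or no line in the model. Against 2 at day 7 over day 0, there were 1 with the floor at the 20th percentile, 1 under quantile normalization, 6 with equal medians, and 0 with the 60th percentile, averaged probe sets, no filter, no trend or no line. With an array left out both counts were 0 in every fit, and the lone array of a day was then assumed to vary like the others. Equal medians shifted the median over all genes by -0.16 for day 4 over day 0 in the full-length line, where 2-fold higher in both lines went to 0 collagens, against 2.

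Over all measured genes, 210 were called at day 4 over day 0, and between 0 and 319 in the alternatives, 137 at day 7 over day 0, and between 0 and 227, and 2 at day 7 over day 4, and between 0 and 44 (27 higher and 17 lower with equal medians, against 2 and 0). The line difference had 3 with equal medians, against 0.

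With the floor at the 20th percentile, which measured 40 collagens, collagens 2-fold higher in both lines at day 4 over day 0 were 4, higher and lower at day 7 over day 4 were 3 and 3, lower in the deletion line at day 0 were 4, and higher and lower in it at day 4 were 2 and 8. The 60th percentile measured 15 collagens. There, 2-fold higher and lower in both lines were 1 and 5 at day 4 over day 0, lower were 0 at day 7 over day 4 and 4 at day 7 over day 0, 1 was lower in the deletion line at day 4, and 0 were higher and 0 lower in it at day 7. Averaged probe sets gave 2 lower in the deletion line at day 4, and 2 higher and 1 lower at day 7. Quantile normalization gave 1 higher in both lines at day 4 over day 0.

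Class medians moved too. At day 4 over day 0 the fibrillar median was -0.60 with averaged probe sets and that of the other collagens -1.36 at the 60th percentile. At day 7 over day 0 the type IV median was 0.14 at the 20th percentile, 1.36 at the 60th and 0.11 with Col18a1 added (Col15a1 was not measured), and that of the other collagens -1.36 at the 60th. With an array left out, the day 4 medians lay between -1.27 and -0.35 for fibrillar genes and between -0.09 and 1.31 for type IV, and the day 7 medians between -1.21 and -0.41 and -0.04 and 1.39. Without the full-length day 0 array the type IV medians turned to -0.091 and -0.039. The day differences were already fitted within lines, and the fit with no line in the model is the unpaired one. No replicate block could be fitted, since the labels give no replicate numbers. Signal over background was not known, so low levels rest on the floor.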
